A study of Macaca mulatta with 2 samples.

Results

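B2M, the gene of the light chain shared by all classical major histocompatibility complex (MHC) class I molecules, was followed together with 3 class I-related genes of the macaque annotation that have no symbol in the feature list. These are ENSMMUG00000054038, which a macaque gene ID table names Mamu-B, ENSMMUG00000050829, which the study calls a regulator of the class I pathway, and ENSMMUG00000064120, which it calls the CD1D ortholog although CD1D is a separate feature (ENSMMUG00000020156). They were chosen by gene name or gene ID, without use of their values, and are 4 of the 26533 features of the reference. Class I genes are near-identical copies of one another, so short 3′ reads can be split or lost between them, and each heavy-chain count below is uncertain for that reason.

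The counts came from Visium slides, on which each spot of 55 µm holds several cells and its mRNA is read from the 3′ end as unique molecular identifiers (UMIs), that is, as counted molecules. NHP1 was a wild-type male macaque of 5 years that had received AAV2-CAG-hRPE65 under the retina of both eyes, and NHP2 was a wild-type male of 6 years that had received AAV8-GRK1-mScarlet in one bleb and AAV8-GRK1-hRPGR in another, also in both eyes. CAG is a promoter active in most cells and GRK1 a photoreceptor promoter. Each animal gave 1 section, from a 4 mm punch outside the blebs of the right eye, taken 12 weeks after injection. All eyes, these included, had subtenon triamcinolone, a steroid, while the antibody adalimumab was given to the left eyes alone, and no eye without an injection was analysed here. Animal, vector, section and library therefore cannot be told apart, and no test between the sections was made.

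NHP1 had 534 spots marked as tissue with 1484784 UMIs (median 1473.5 per spot), and NHP2 had 470 with 805726 UMIs (median 370.5). The sections were separate libraries on slides with the same printed barcodes, of which 4341 were in both matrices and 67 lay under tissue in both. Regions of spots were called by clustering that left out the class I genes, and were named by layer markers. In NHP1 they gave 153 photoreceptor, 162 inner retina, 49 RPE (retinal pigment epithelium), 45 choroid and 125 sclera spots. In NHP2 they gave 34 inner retina spots with a median of 8098.5 UMIs, 70 RPE spots holding 12088 UMIs in all, 190 sclera spots and 176 spots that matched no single layer. Of these last, 35 spots with 184607 UMIs were led by SLC39A12, OPN1LW and RBP3 and carried 16 photoreceptor and 9 RPE markers. The RPE region of NHP1 also carried 7 choroid markers and its choroid region 9 sclera markers, so the layers are not pure.

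Class I molecules carry peptides from the inside of a cell to its surface, where CD8 T cells read them. A polymorphic heavy chain, the light chain B2M and a peptide form the complex, the peptide is cut by the proteasome or its interferon-induced form, the immunoproteasome, and it is carried and loaded by the TAP transporter, tapasin and chaperones. Neurons of the normal retina are known for low class I, while vascular and connective tissue cells express it constitutively, and interferons raise it through factors such as IRF1 and NLRC5.

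B2M was the most abundant of the 4 genes in both sections. It had 731 UMIs in NHP1, or 4.92 per 10000 UMIs (95% interval 4.57 to 5.29), and 1768 in NHP2, or 21.9 per 10000 (20.9 to 23.0). Intervals given here cover counting error only, since neither animals nor sections were replicated. Since levels are shares of a spot's UMIs, fewer cells of a type and less RNA per cell cannot be told apart.

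The class I IDs were sparser. ENSMMUG00000050829 had 149 UMIs in NHP1 (1.004 per 10000) and 235 in NHP2 (2.92). ENSMMUG00000054038 had 32 and 102 (0.216 and 1.27 per 10000), and ENSMMUG00000064120 had 31 and 44 (0.209 and 0.546). All 4 genes thus took a larger share of the UMIs of NHP2 than of NHP1. The named heavy chains were more abundant than the 3 IDs: MAMU-E, whose product is a ligand of natural killer cell receptors, had 565 and 653 UMIs (3.81 and 8.10 per 10000), and MAMU-A 331 and 421 (2.23 and 5.23). Reads come from 3′ ends, so these levels are not divided by transcript length. MAMU-F had 1 and 2 UMIs, ENSMMUG00000052293 had 11 and 3, and ENSMMUG00000058325 had none in either section.

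In NHP1, B2M was low in the neural retina and high outside it. The photoreceptor regions held 125 B2M UMIs, or 2.50 per 10000 (2.08 to 2.97), and the inner retina regions 189, or 2.67 (2.30 to 3.08). The RPE region held 121, or 12.0 per 10000 (9.94 to 14.3). The sclera regions held 151, or 15.9 (13.5 to 18.7), and the choroid region 145, or 18.0 (15.2 to 21.1). The order therefore ran from photoreceptor and inner retina, whose intervals overlap, through RPE to sclera and choroid, whose intervals overlap as well.

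Within these layers, tissue pieces differed little for B2M except in the sclera. The section had 6 pieces, and the 3 with retina (A, B and C) gave 2.50, 2.66 and 3.43 per 10000 in the inner retina and 2.104, 2.69 and 1.89 in the photoreceptor regions. The 2 pieces with a choroid gave 18.0 and 17.9 there, and 12.3 and 11.6 in the RPE. The sclera of piece A had 21.8 (18.0 to 26.3) and that of piece B 9.10 (6.50 to 12.4), intervals that do not overlap. By region, the sclera of NHP1 split into one led by CHAD, THBS4 and MYOC with 28.3 B2M UMIs per 10000 and one led by TRIM29, SERPINA3 and ANGPTL7 with 11.9.

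In NHP2, the inner retina was not low in B2M. It held 965 B2M UMIs, or 22.5 per 10000 (21.1 to 24.0), beside 28 in the RPE, or 23.2 (15.4 to 33.5), and 449 in the sclera, or 30.0 (27.3 to 32.9). The region with both photoreceptor and RPE markers held 234, or 12.7 (11.1 to 14.4), and all spots without a layer name 326, or 15.1 (13.5 to 16.8). Inner retina and RPE overlapped, the sclera stood above the inner retina, and the photoreceptor-marked region was lowest. The inner retina of NHP2 lay in 1 of its 5 tissue pieces, so it has no second piece beside it. Sclera from piece A had 37.1 and from piece B 26.2 B2M UMIs per 10000.

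**Figure D1:**
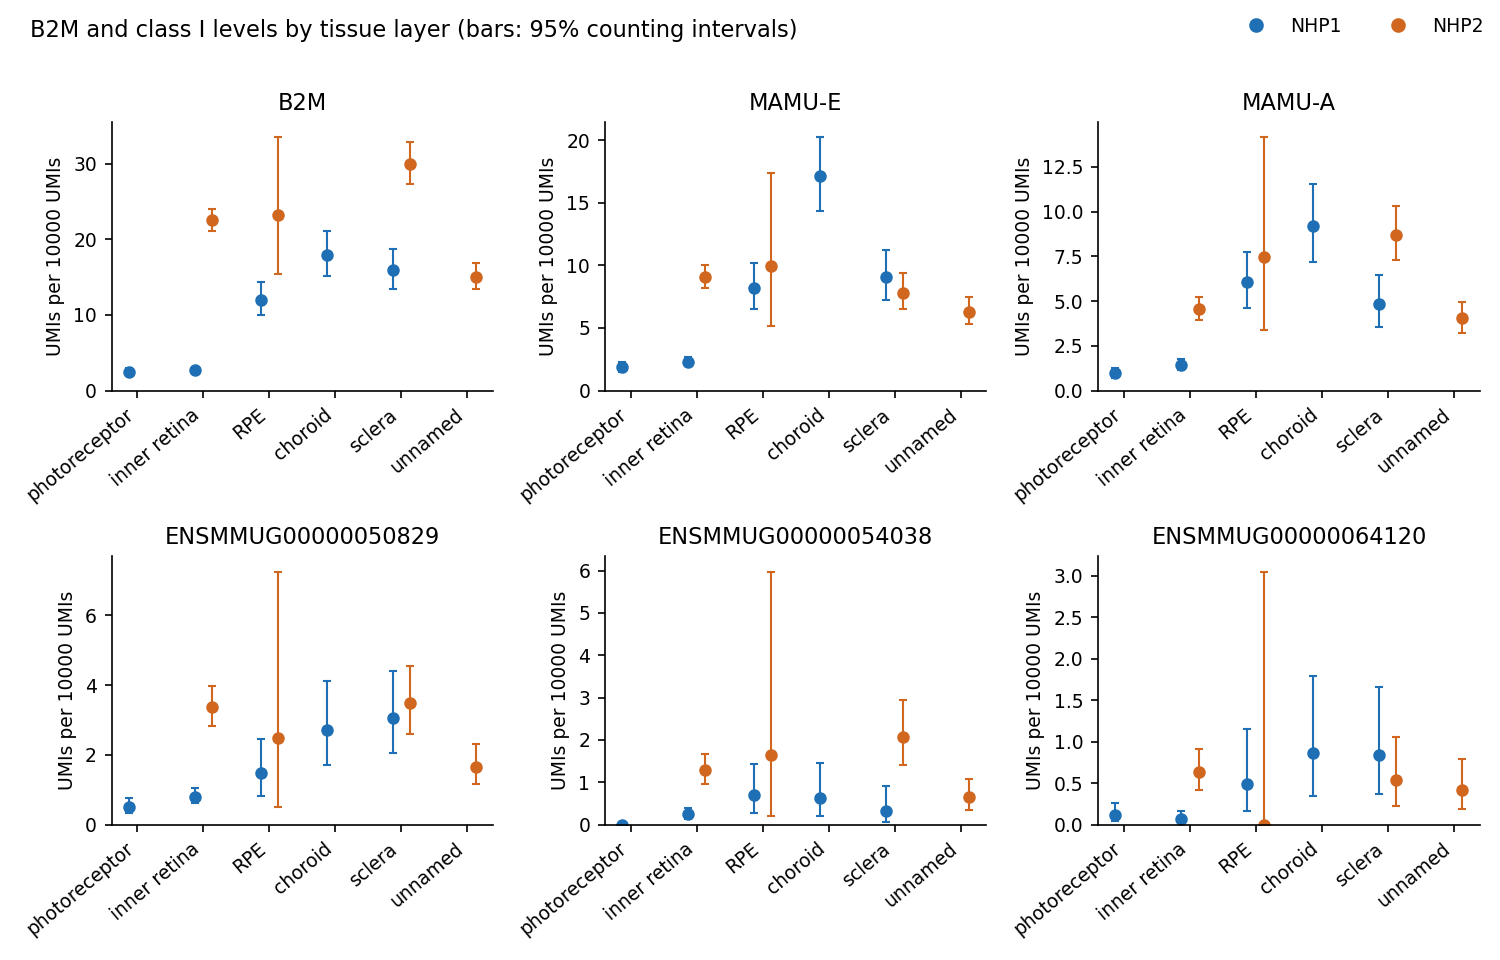
Levels of B2M, the class I IDs, MAMU-A and MAMU-E in UMIs per 10000 UMIs by layer in NHP1 and NHP2, with exact Poisson 95% intervals of the counts as bars. B2M in NHP1 runs from 2.50 in the photoreceptor regions to 18.0 in the choroid, and in NHP2 the inner retina is at 22.5.

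The class I IDs had few UMIs per layer. In NHP1, ENSMMUG00000050829 had 0.519 UMIs per 10000 in the photoreceptor regions, 0.806 in the inner retina, 1.49 in the RPE, 2.73 in the choroid and 3.06 in the sclera. In NHP2 it had 3.36 (144 UMIs; 2.84 to 3.96) in the inner retina, 3.48 in the sclera and 2.48 in the RPE, the last from 3 UMIs. Its order over the layers was thus that of B2M in NHP1 but for choroid and sclera, and in NHP2 inner retina and sclera were close. ENSMMUG00000054038 had no UMI in the photoreceptor regions of NHP1, where a count of 0 allows up to 3 UMIs, and 17 in the inner retina (0.2403 per 10000). In NHP2 it had 55 UMIs in the inner retina (1.29 per 10000) and 31 in the sclera (2.07). ENSMMUG00000064120 had between 5 and 8 UMIs in each layer of NHP1, and 27 in the inner retina, 8 in the sclera and 0 in the RPE of NHP2. In NHP1 it had 0.1198 UMIs per 10000 in the photoreceptor regions and 0.0707 in the inner retina. Against both together it was 9.53 times higher in the choroid (3.13 to 26.9), 9.27 times in the sclera (3.24 to 25.3) and 5.44 times in the RPE (1.48 to 17.0), from 5 to 8 UMIs in each outer layer. Its level was thus higher in these outer layers than in the retina of NHP1, while the outer layers could not be ordered among themselves.

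Set against the neural retina of its own section, B2M of NHP1 was 6.91 times higher in the choroid (5.64 to 8.44), 6.13 times in the sclera (5.01 to 7.46) and 4.61 times in the RPE (3.71 to 5.70). A 2-fold or larger excess was found for 9.78% of the genes with at least 50 UMIs in the choroid comparison, 6.22% in the sclera comparison and 5.37% in the RPE comparison, so B2M lay with a minority of genes in each. ENSMMUG00000050829 was 3.97 times higher in the choroid (2.36 to 6.41), 4.45 times in the sclera (2.81 to 6.87) and 2.16 times in the RPE (1.16 to 3.77). These 2 were the genes of the 4 with enough UMIs, and both passed 2-fold in all 3 comparisons. MAMU-E was higher by 8.01, 4.25 and 3.85 times and MAMU-A by 7.39, 3.91 and 4.86 times, in the same order. FCGRT, the gene of an IgG receptor that also pairs with B2M, was higher by 14.1, 8.37 and 5.81 times. Photoreceptor and inner retina regions of NHP1 did not differ in B2M beyond counting error, with a ratio of 0.934 (0.739 to 1.18) where 4.94% of genes were 2-fold higher, and ENSMMUG00000050829 had a ratio of 0.644 (0.389 to 1.04). The B2M ratio of these layers depended on how spots were assigned: it was 0.610 (0.458 to 0.806) with spots given to the layer of their highest marker share, 0.542 (0.416 to 0.699) with the listed genes in the clustering, and 0.534 (0.3196 to 0.874) in spots without the phagocyte, T and NK cell and class II lists.

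Phagocyte and class II genes were higher outside the neural retina of NHP1 as well. Endothelial markers as a sum were higher in RPE and choroid, but not beyond counting error in the sclera. The 12 mononuclear phagocyte markers summed to 0.919 UMIs per 10000 in the neural retina of NHP1, 7.13 in the RPE, 14.4 in the choroid and 7.80 in the sclera, with TMEM119 at 0 throughout the section. The 8 endothelial markers summed to 3.39, 12.6, 14.1 and 3.59, and the 7 class II genes to 1.81, 13.96, 18.5 and 3.80, in the same order. All endothelial markers but EGFL7 were also among the choroid markers used to name regions, so their excess in the choroid was partly built into its name. EGFL7 was 9.61 times higher than in the neural retina in the choroid (6.05 to 15.1), 9.25 times in the RPE and 2.89 times in the sclera. In spots without a UMI of the phagocyte, T and NK cell and class II lists, the ratio of B2M to the neural retina was 8.48 in the choroid, from 7 B2M UMIs (3.29 to 18.4), 6.54 in the sclera (4.54 to 9.36) and 5.53 in the RPE. A spot with none of these UMIs can still hold such cells at this depth. The part of phagocytes, other immune cells and endothelium in the B2M levels was not tested.

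Summed by list, the processing genes of the class I pathway rose less than B2M outside the retina of NHP1. The 5 immunoproteasome genes summed to 1.99 times the neural retina level in the choroid (1.38 to 2.80), 1.25 times in the sclera and 1.51 times in the RPE. PSME1 and PSME2, subunits of the proteasome activator, were 2.17 and 2.11 times higher in the choroid. The genes for peptide transport and loading summed to 1.02, 1.12 and 1.18 times, the constitutive proteasome subunits to 0.844, 0.935 and 1.07 times, and the class I regulators to 0.998, 0.997 and 1.07 times. The median gene had ratios of 0.779, 0.742 and 0.842.

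Within NHP2, the sclera held 1.33 times the B2M of the inner retina (1.19 to 1.49), in a comparison in which 13.6% of genes passed 2-fold and B2M and both measured class I IDs, 3 of the 4 genes, did not. ENSMMUG00000050829 had a ratio of 1.03 (0.738 to 1.43) and ENSMMUG00000054038 of 1.61 (1.004 to 2.55). MAMU-A was 1.91 times as high (1.52 to 2.39) and MAMU-E 0.863 times (0.696 to 1.064). FCGRT stood apart from them at 37.0 times (20.04 to 75.7). The RPE of NHP2 had 1.03 times the B2M of its inner retina (0.679 to 1.49), where 10.4% of genes passed 2-fold, and ENSMMUG00000050829 had a ratio of 0.738 from 3 UMIs.

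**Figure D2:**
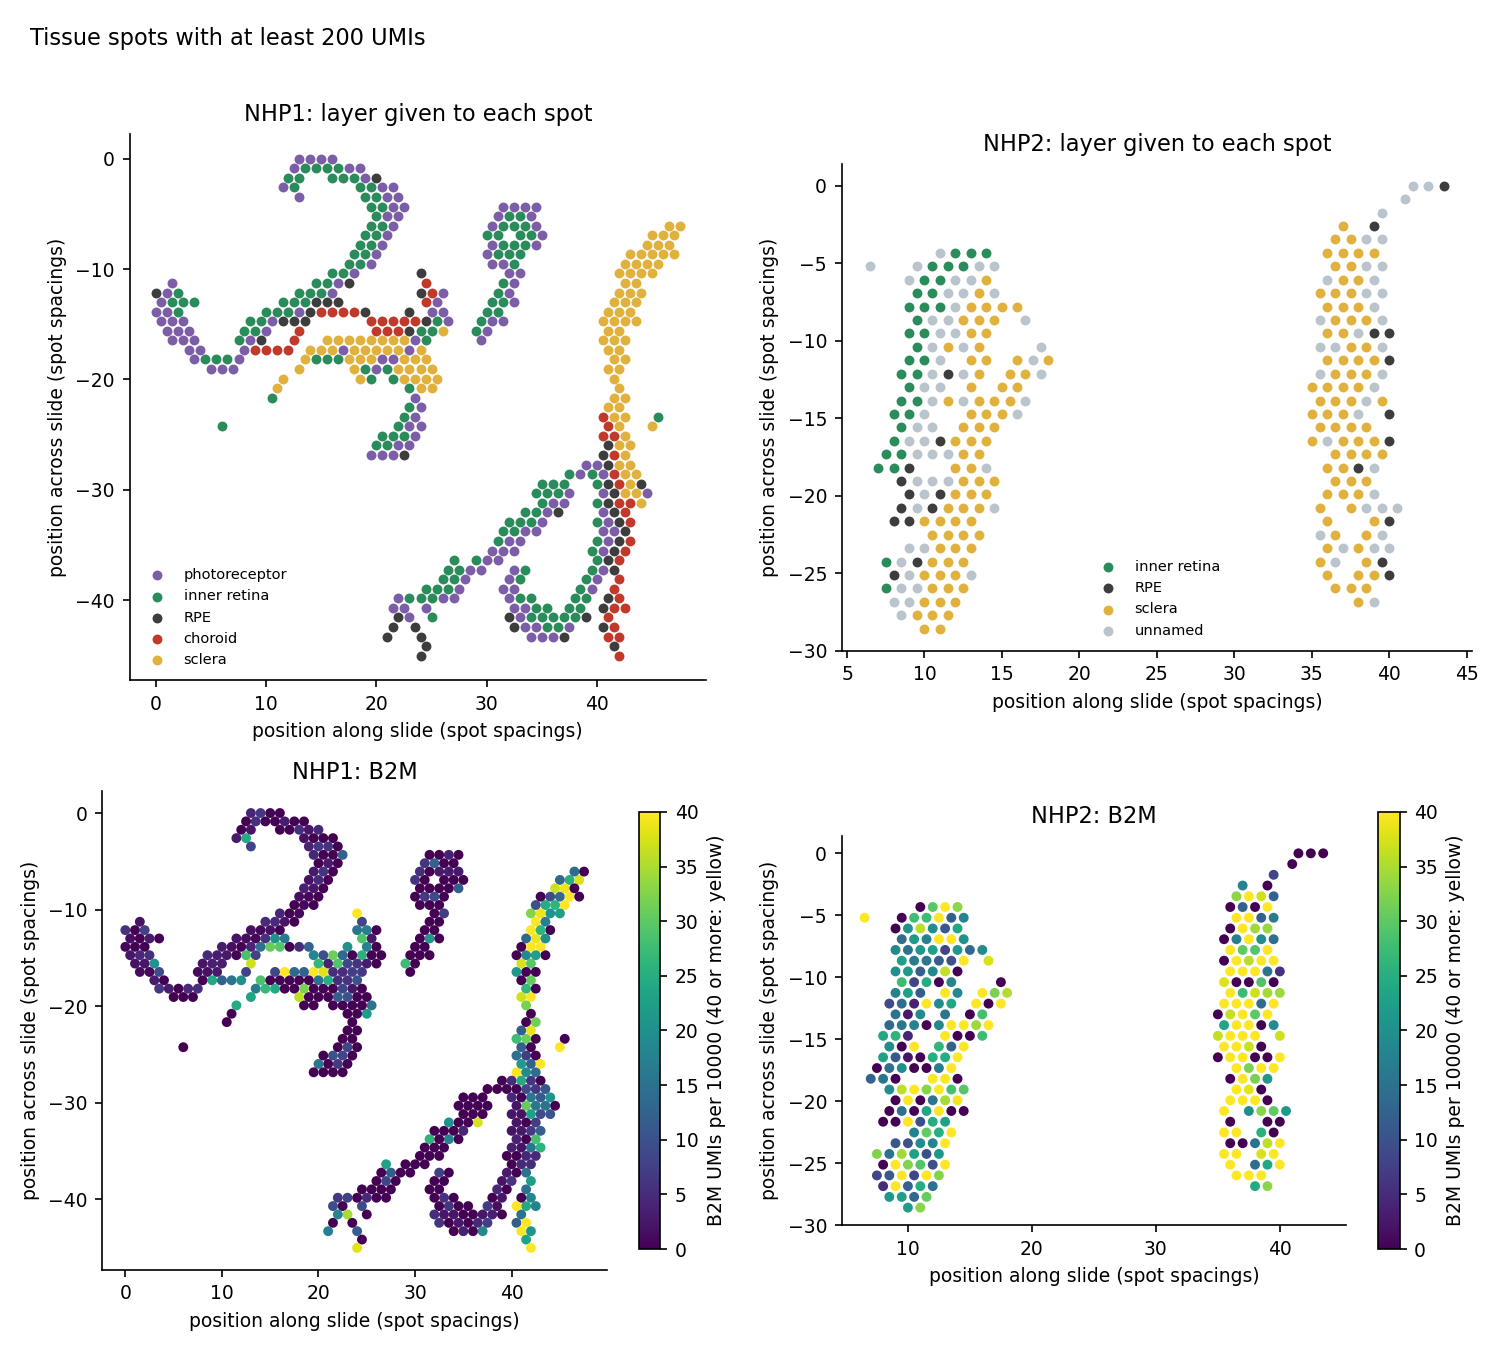
Positions of tissue spots with at least 200 UMIs on each slide, in spot spacings, coloured by layer and by B2M UMIs per 10000. In NHP1 the spots of the neural retina are dark and those of RPE, choroid and sclera brighter, while in NHP2 the inner retina spots are bright as well.

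Single spots showed the same split. In the inner retina of NHP1, 106 spots had at least 1000 UMIs, 68 of them had a B2M UMI, and their B2M level ran from 0 through a median of 2.07 to 24.7 per 10000. In that of NHP2, 33 of 34 such spots had a B2M UMI, and the level ran from 0 through a median of 20.8 to 54.1. The upper quartile in NHP1 (4.42) was below the lower quartile in NHP2 (14.9), although the whole ranges overlap. The photoreceptor spots of NHP1 had a median of 0 and a highest value of 20.5. Choroid spots of NHP1 ran from 3.76 through 16.5 to 65.4, each with a B2M UMI, and RPE spots from 0 through 8.31 to 67.1. Medians of sclera spots were 10.1 in NHP1 and 23.9 in NHP2. Spots of 1 section share a library and are not replicates.

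**Figure D3:**
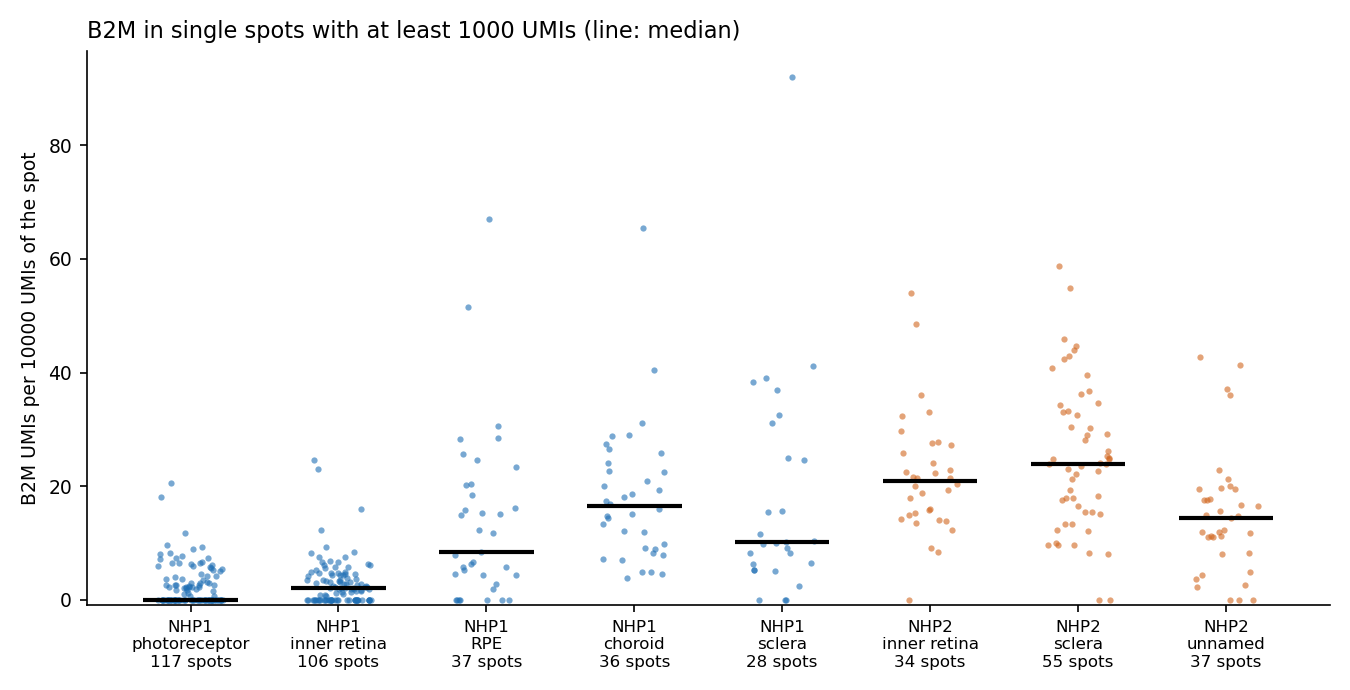
B2M UMIs per 10000 UMIs in each spot with at least 1000 UMIs, by section and layer, with the median as a line. The inner retina spots have a median of 2.07 in NHP1 and 20.8 in NHP2.

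The share of spots with a B2M UMI looked alike in both sections until depth was matched. As counted, 294 of 534 tissue spots of NHP1 (55.1%; exact interval 50.7 to 59.3) and 272 of 470 of NHP2 (57.9%; 53.3 to 62.4) had one. With each spot thinned to 200 UMIs and shallower spots left out, the shares were 77 of 509 (15.1%) and 126 of 306 (41.2%). In the inner retina, 76 of 162 spots of NHP1 (46.9%) and 33 of 34 of NHP2 (97.1%) had a B2M UMI, and after thinning 5 of 156 (3.21%) and 12 of 34 (35.3%). The thinned shares in NHP1 were 7.28% in photoreceptor regions, 27.1% in the RPE, 30.3% in the sclera and 33.3% in the choroid, which is the order of the levels except that the inner retina fell below the photoreceptor regions. Those of NHP2 were 34.8% in the RPE and 46.8% in the sclera.

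B2M was also counted off the tissue. There 133 of 4284 spots of NHP1 (3.10%) and 80 of 4027 of NHP2 (1.99%) had a B2M UMI, at 0.0430 and 0.0315 B2M UMIs per spot against 1.37 and 3.76 under tissue. As a share of the few UMIs there, B2M stood at 3.52 per 10000 in NHP1 and 16.5 in NHP2. The neural retina level of NHP1 (2.60) was below the off-tissue level of its section. In NHP2 the inner retina level was above the off-tissue level, while the photoreceptor-marked region and all spots without a layer name were below it. The part of spread RNA in the tissue values was not tested.

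The inner retina was the one neural layer with a region in both sections. There B2M was 8.44 times higher in NHP2 than in NHP1 (7.21 to 9.92), ENSMMUG00000054038 5.35 times (55 against 17 UMIs; 3.06 to 9.83) and ENSMMUG00000050829 4.18 times (144 against 57; 3.05 to 5.78). All 3 passed 2-fold in a comparison in which 2.04% of 4471 genes did and the median gene had a ratio of 1.02. ENSMMUG00000064120, with 27 against 5 UMIs, was under the minimum of 50 and had a ratio of 8.92 (3.39 to 29.7). MAMU-E was 3.91 times higher (3.25 to 4.72) and MAMU-A 3.16 times (2.47 to 4.06). The heavy chains MAMU-E and MAMU-A thus had smaller ratios than B2M, with intervals that lie below its own. Among class I-like genes, FCGRT had 11 UMIs in NHP2 against 22 in NHP1, CD1D 8 against 14 and AZGP1 2 against 15. These are raw counts. The inner retina of NHP2 held fewer UMIs in all than that of NHP1, so the gaps in level were smaller than those in counts.

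Spots assigned by their own marker share gave a like picture, also for photoreceptor and choroid, the layers without a region of their own in NHP2. By that rule, photoreceptor spots had 1.59 B2M UMIs per 10000 in NHP1 (127 spots) and 14.8 in NHP2 (40 spots), and inner retina spots 2.60 and 22.6. The values were 8.60 and 16.8 in RPE spots, 15.2 and 27.8 in choroid spots and 15.4 and 30.9 in sclera spots. B2M was higher in NHP2 in each of the 5 layers, with the widest gaps in the neural ones.

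Outside the neural retina the sections differed less. B2M was 1.89 times higher in the sclera of NHP2 (1.56 to 2.28) and 1.93 times in its RPE (1.23 to 2.94). Of all genes with at least 50 UMIs, 13.5% passed 2-fold in the sclera and 5.26% in the RPE, and neither did B2M in either layer nor any of the class I IDs with enough UMIs. ENSMMUG00000050829 had a sclera ratio of 1.14 (0.709 to 1.86), MAMU-A of 1.79 (1.27 to 2.57) and MAMU-E of 0.863 (0.648 to 1.15). ENSMMUG00000054038 had 31 against 3 UMIs in the sclera (6.55; 2.04 to 33.5) and ENSMMUG00000064120 had 8 in each section.

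The genes of the class I pathway were read in the same inner retina comparison, by their roles. Among pathway genes with at least 50 UMIs, the highest single ratios were those of PSMB8 and PSMB9 of the immunoproteasome. PSMB8 had 96 UMIs in NHP2 against 10 in NHP1, a ratio of 15.9 (8.26 to 34.1), and PSMB9 60 against 6, a ratio of 16.5 (7.16 to 46.8). Both encode catalytic subunits that replace constitutive ones under interferon. PSME2 was 3.11 times higher (2.11 to 4.63) and PSME1 2.29 times (1.73 to 3.05), while PSMB10, the third catalytic subunit of that form, had a ratio of 1.42 (0.8002 to 2.52). So 4 of 5 immunoproteasome genes passed 2-fold, with a list median of 3.11. None of the constitutive counterparts did, with ratios of 0.964 for PSMB5, 1.34 for PSMB6 and 1.19 for PSMB7.

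Of the genes for peptide transport and loading, 1 of 5 measured passed 2-fold. TAPBP, which encodes tapasin, the bridge between the transporter and class I, was 2.53 times higher in NHP2 (1.72 to 3.78). The general chaperones of the list were close to the median gene, at 1.35 for HSPA5, 0.967 for PDIA3, 0.937 for CANX and 0.907 for CALR. TAP1 and TAP2, the transporter genes, were not among the symbols of the reference and have no value here.

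Of the class I regulators, STAT2, a factor of type I interferon signalling, was 3.26 times higher in NHP2 (2.19 to 4.93), and RFX5, which binds class I and II promoters, had a ratio of 1.03. NLRC5, the class I transactivator, had 24 UMIs against 1, a ratio of 39.7 with an interval from 6.47 to 1631. IRF1 had 15 against 6 and IRF7 17 against 3. STAT2 thus passed 2-fold and RFX5 did not, while NLRC5, IRF1 and IRF7 rest on few UMIs. The 5 type I interferon genes taken from the study summed to 91 against 17 UMIs, 8.85 times higher (5.23 to 15.8), of which OAS3 had 53 against 5. Of the class II genes, CD74, the invariant chain, was 2.03 times higher (1.49 to 2.77) and alone had at least 50 UMIs. MAMU-DRA had 32 against 16 UMIs and MAMU-DPA 16 against 0. The others did not rise beyond counting error: Mamu-DPA1 had 7 against 9 UMIs (ratio 1.29), CTSS 11 against 21 (0.866) and MAMU-DMB 0 against 2.

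**Figure D4:**
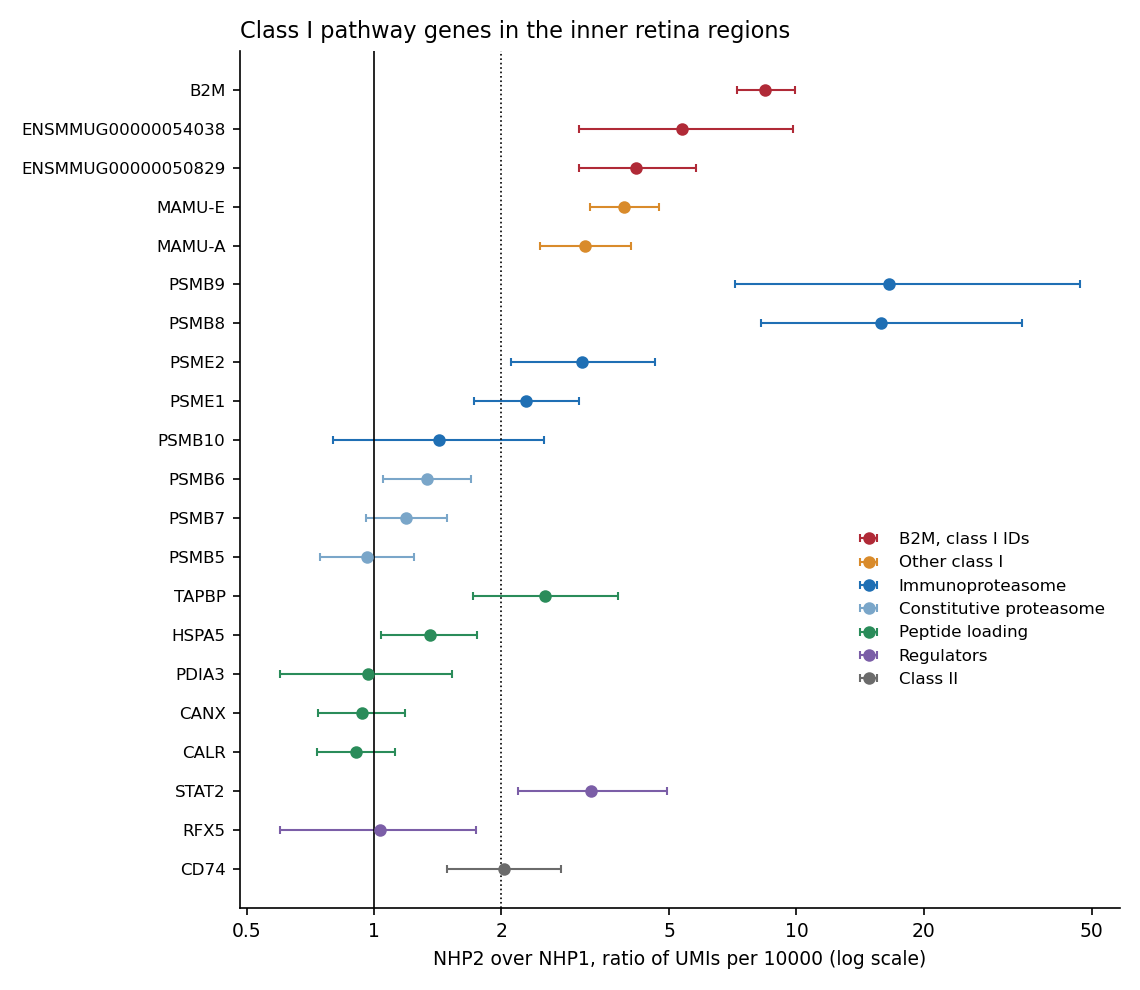
Ratio of NHP2 to NHP1 in the inner retina regions on a log axis, for class I pathway genes with at least 50 UMIs, coloured by list, with exact conditional 95% intervals as bars. The solid line marks a ratio of 1 and the dotted line a ratio of 2; PSMB9, PSMB8 and B2M stand furthest right.

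Markers of other cells were few in both inner retinas. The 12 phagocyte markers summed to 99 UMIs in NHP2 and 60 in NHP1, or 2.31 and 0.848 per 10000, a ratio of 2.73 (1.96 to 3.82). C1QA had 22 UMIs in NHP2 against 13 in NHP1, C1QC 19 against 8 and P2RY12 8 against 0. TMEM119 and PTPRC were at 0 in both, and CD163 alone had a lower level in NHP2, at 1 against 6. The T and NK cell markers summed to 6 and 2 UMIs, with CD3D and CD3E at 0. The endothelial markers had a ratio of 1.09 (0.877 to 1.34), and HBA, a red cell gene, had 1 UMI against 57. No inner retina spot of NHP2 was without a UMI of the phagocyte, T and NK cell and class II lists, so the part of phagocytes in this difference was not tested.

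B2M and its heavy chains did not keep one proportion. Of the UMIs of MAMU-E and B2M together, MAMU-E made up 46.5% in the inner retina of NHP1 (41.2 to 51.8) and 28.7% in that of NHP2 (26.3 to 31.2). In the sclera the share was 36.3% (30.2 to 42.8) and 20.7% (17.4 to 24.2). MAMU-A made up 35.1% of its sum with B2M in the inner retina of NHP1 (29.6 to 40.8) and 16.8% in that of NHP2 (14.7 to 19.1). In the sclera MAMU-A was at 23.4% (17.6 to 29.9) and 22.5% (19.1 to 26.1). The share of MAMU-E was thus lower in NHP2 in both layers, and that of MAMU-A in the inner retina, with overlapping intervals in the sclera. Reads of alleles that the reference lacks would be missing from these counts.

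**Figure D5:**
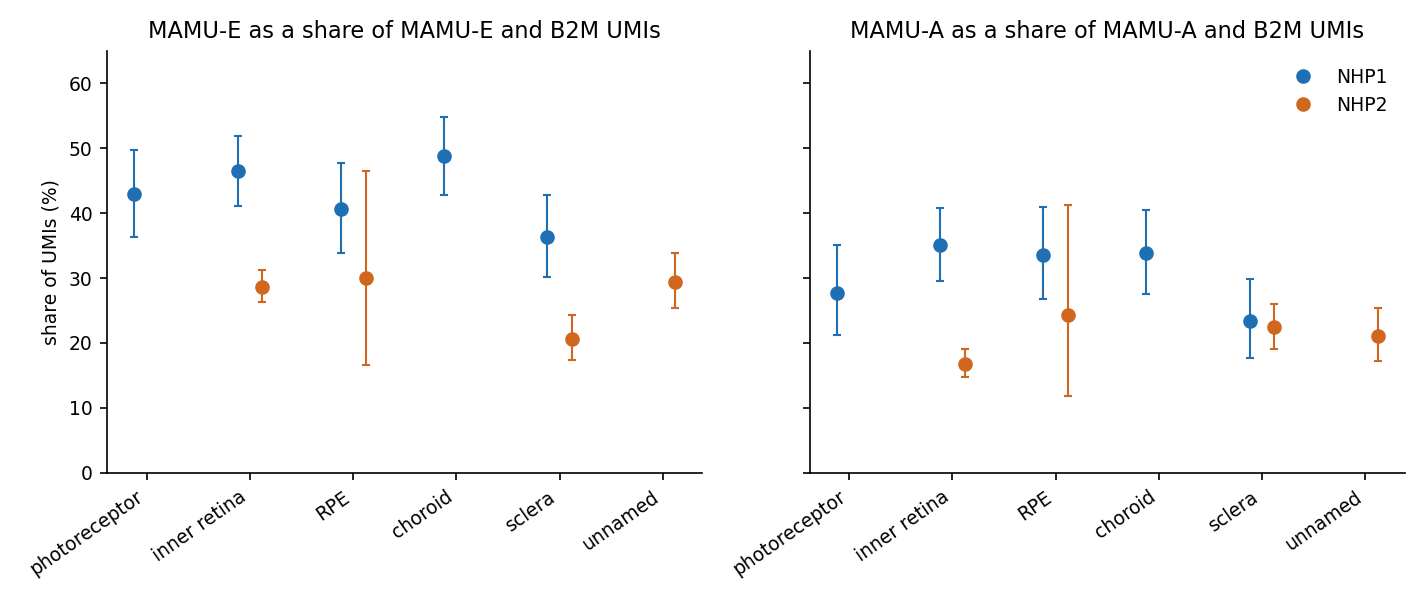
Heavy-chain UMIs as a percent of heavy-chain and B2M UMIs together, by layer, for MAMU-E and MAMU-A, with exact 95% intervals as bars. In the inner retina MAMU-E is at 46.5% in NHP1 and 28.7% in NHP2, and MAMU-A at 35.1% and 16.8%.

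Over the 18 regions of both sections, which share 2 libraries, the genes most like B2M by Pearson correlation of log2(UMIs per 10000 + 0.1) were ENSMMUG00000061959 (r = 0.877), MAMU-E (0.876), COL1A2, a collagen gene (0.863), CD74 (0.851) and VAT1 (0.828), of 3396 genes. MAMU-A ranked 187 (0.369) and ENSMMUG00000050829 ranked 275 (0.252). Over the 16 regions with at least 10000 UMIs, a limit set after the values were seen, MAMU-A (0.940), MAMU-E (0.922) and ENSMMUG00000050829 (0.920) ranked 2, 3 and 4 after ENSMMUG00000064139 (0.9499). The likeness of MAMU-A and ENSMMUG00000050829 to B2M thus turned on the shallow regions.

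The authors' own spatial score, Moran's I, is high where neighbouring spots have like levels. For B2M it was 0.265 in NHP1, rank 66 of 13804 genes, and 0.112 in NHP2, rank 252 of 12542. MAMU-E had 0.295 and 0.0624, MAMU-A 0.116 and 0.0628. ENSMMUG00000050829 had 0.0414 and -0.00121, and the scores of ENSMMUG00000054038 and ENSMMUG00000064120 were near 0. B2M and MAMU-E thus had the highest scores of these genes in NHP1, and B2M in NHP2. They also had the most UMIs of these genes, and the part of depth in the scores was not tested. A score near 0 for a sparse gene is therefore not read as a lack of pattern.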

How the data were processed

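The 2 sections were analysed from the raw UMI counts per gene and spot that the authors deposited, made with Space Ranger 2.1.0 against Mmul_10 with the transgene sequences added. The deposited Moran's I is a score that Space Ranger computed on its own normalized counts, and the p-values in that table were not used. Of 26533 features, 9855 had no symbol, and 564 of these were named from a gene ID table. The labels call the sections both fresh frozen and fixed.

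Tissue spots of each section were clustered with scanpy 1.11.5 and leidenalg 0.10.2 (10000 UMIs per spot, log1p, 2000 variable genes, 20 principal components, 15 neighbours, resolution 1), without the 89 genes of the gene lists. A region took the name of the layer with most markers (at least 3, each with 3 or more UMIs and 1.5-fold over the rest of the section). It stayed unnamed where another layer had more markers among its 10 leading genes. Shallow regions without a marker of the layer among those genes stayed unnamed too. The authors' own layers were not used here. UMIs were summed per layer and given per 10000, with exact 95% intervals: Poisson for sums, Clopper-Pearson for shares, conditional binomial for ratios. A gene entered a comparison with at least 50 UMIs over both sides and was called at 2-fold. With 1 section per animal no test was made. A count of 0 allows up to 3 UMIs. The ratios were tested on simulated data. Some sequence and gene results are not reported here. Named genes are the 4 genes, list members with at least 20 UMIs, leading genes of regions and the 5 genes most like B2M. List members named with fewer UMIs were named after their values were seen. The genes and lists were chosen with earlier results of these data known. Alternatives were the clustering, layer assignment, spots, pieces and totals used.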

Additional observations from a re-analysis of the deposited data

How the results depend on the processing

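The ratios of B2M kept their direction under all alternatives that gave one, except RPE over inner retina in NHP2 (0.745 to 1.10, main 1.03), where the direction was not settled. NHP2 over NHP1 in the inner retina ranged from 6.90 (Leiden resolution of 0.5) to 8.70, and was 7.12 when the listed genes entered the clustering. The largest tissue piece of NHP2 had no inner retina, and no inner retina spot of NHP2 lacked the phagocyte, T and NK cell and class II lists, so neither setting gave this ratio. In spots without those lists, chosen after seeing the data, NHP2 over NHP1 in the sclera was 2.44 and choroid over neural retina in NHP1 8.48. Sclera over inner retina in NHP2 was 1.54 at a resolution of 0.5, and sclera over neural retina in NHP1 was 9.46 in the largest piece. Shares of spots with a B2M UMI followed depth: in NHP1 30.7% with at least 2 UMIs, 15.1% thinned and 35.7% without the immune lists, and in NHP2 82.0% in spots of at least 200 UMIs, 46.2% in the largest piece, 44.3%, 41.2% and 31.4% in the order just given. For ENSMMUG00000054038 and ENSMMUG00000064120, the ratios of RPE and choroid to neural retina in NHP1 went to 0 in spots without the immune lists, where no UMI of either was counted in RPE or choroid. Each had only 5 to 7 UMIs in all spots of these layers, so a count of 0 in a subset cannot be told apart from lost depth. The percent of genes at least 2-fold higher in the inner retina of NHP2 ranged from 1.77 to 2.58. No paired analysis was possible because each animal gave 1 section and no comparison has replicates.

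Depth limits the RPE of NHP2 (12088 UMIs in all) and the 2 sparsest IDs, whose layers rest on a few UMIs each.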
